A study of Mus musculus with 18 samples.

Results

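The 38 genes described here carry fatty acids into the cell, move them into mitochondria, oxidise them there and keep a local store of triglyceride. They were chosen by symbol, and each of the 38 symbols matched 1 row of a deposited table of 24341 genes. All 38 reached 1 FPKM (a transcript level scaled for transcript length and library size) in at least 3 libraries, and so all were among the 12584 genes tested. The libraries hold polyadenylated RNA of hearts from C57BL/6 mice 12 weeks old. The mice were wild-type (WT) or labelled as knockouts of Med13 in the heart (cKO). Neither the Cre line and promoter behind that knockout nor any allele of the WT mice is given in the sources used here. Within each genotype 3 libraries came from mice on normal chow. Another 3 came from mice fed propylthiouracil (PTU), which blocks the making of thyroid hormone, for 4 weeks from the age of 8 weeks. The last 3 came from mice that had the same PTU feeding and then triiodothyronine (T3), the active hormone, in 3 injections on successive days. The labels do not say whether a library is 1 animal or a pool, so p-values measure the spread between libraries, which may be technical.

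Fatty acids are the main fuel of the adult heart. A fatty acid entering a heart muscle cell is bound by a carrier, joined to coenzyme A, passed through the mitochondrial membrane as a carnitine ester and shortened in a repeating spiral of oxidation, hydration, oxidation and cleavage whose electrons enter the respiratory chain. Malonyl-CoA blocks the carnitine step, and lipid droplets hold a reserve of triglyceride that lipases release. Thyroid hormone acts through nuclear receptors that bind DNA as dimers, often at copies of the letters AGGTCA, a half-site that other nuclear receptors of this pathway also use.

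The stretches just upstream of 3 of the genes whose levels moved in both genotypes are shown first, because the values below return to these genes most often. They are from RefSeq (GRCm38.p6), lie on the minus strand of that build, are written 5′ to 3′ along the gene, and stop before the annotated gene begins. Capitals mark AGGTCA. The Cpt2 stretch, chr4:107923611-107923839, holds no AGGTCA. The Acadvl stretch, chr11:70015429-70015678, holds 1, at position -87 from the RefSeq start. The Plin5 stretch, chr17:56117597-56117798, holds 1, at position -170 from a RefSeq start that lies beyond the end of the printed stretch. It is from the Plin5 window picked for holding AGGTCA, and the window at chr17:56117299-56117548 holds 0.
Cpt2: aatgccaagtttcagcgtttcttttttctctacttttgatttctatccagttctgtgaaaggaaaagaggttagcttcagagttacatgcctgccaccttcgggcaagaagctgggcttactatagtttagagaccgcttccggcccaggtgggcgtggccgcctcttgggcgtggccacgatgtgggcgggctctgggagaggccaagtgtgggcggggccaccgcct
Acadvl: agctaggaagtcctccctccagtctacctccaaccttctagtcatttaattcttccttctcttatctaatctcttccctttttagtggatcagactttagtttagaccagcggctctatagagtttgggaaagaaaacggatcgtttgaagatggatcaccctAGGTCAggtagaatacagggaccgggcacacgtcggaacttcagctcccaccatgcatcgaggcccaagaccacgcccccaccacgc
Plin5: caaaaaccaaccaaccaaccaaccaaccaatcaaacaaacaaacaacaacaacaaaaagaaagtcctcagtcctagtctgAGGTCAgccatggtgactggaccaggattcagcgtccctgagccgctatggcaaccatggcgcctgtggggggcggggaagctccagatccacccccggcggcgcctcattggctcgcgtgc
RefSeq promoter entries matched 31 of the 38 genes, with 37 windows of 250 bases before a start. On either strand AGGTCA occurred in 5 of these 37 windows (13.5%), those of Acadm, Acadvl, Cpt1a, Echs1 and Plin5, against 14% of all 32851 windows of that length. Direct repeats of AGGTCA with 1 letter (DR1) or 4 letters (DR4) between the copies, each of which contains AGGTCA, were in 0 member windows and in 0.0335% and 0.0152% of all windows. TCAAGGTCA, which also contains AGGTCA, was in 0 member windows and 0.387% of all. These are matches of letters in a short window and describe no binding.

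The level of Med13 did not separate the genotypes. Single libraries ranged from 4.93 to 6.96 FPKM, and the log2 difference between cKO and WT averaged over treatments was -0.01 (SE 0.0621, adjusted p = 1). A value for the whole gene can include reads outside a deleted part, so each direction given between genotypes rests on the labels. Myh6, the fast myosin heavy chain that thyroid hormone is known to induce, stood at 3204 ± 793 FPKM on chow, 239.5 ± 151 FPKM on PTU and 3024 ± 445 FPKM with T3 in WT hearts (SD, n = 3). How many reads stand behind each library is unknown. Per library 11675 to 12088 genes reached 1 FPKM, and summed FPKM lay between 551011 and 766209.

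On the FPKM scale, which compares genes per length, the 38 genes together held 2.11% to 3.63% of all FPKM in a library. Fabp3, the carrier that binds fatty acids in the heart muscle cytosol, was the highest of them at 6662 ± 38.04 FPKM in WT chow hearts (SD, n = 3). The acyl-CoA synthetase Acsl3 was the lowest at 2.55 ± 0.42 FPKM. In that group 26 of the 38 had a mean of at least 100 FPKM. Between Fabp3 and the next gene, Ech1, the libraries did not overlap, but for 31 of the 37 neighbouring pairs in the order of means they did, so most neighbours cannot be ranked. After Ech1 came the trifunctional protein subunit Hadhb, the carrier Fabp4 and the electron transfer subunit Etfb, at 1207 ± 215, 982 ± 137 and 882 ± 179 FPKM. Some of these levels may include reads of near-identical copies. By words of 50 bases, Cpt1b shares 78.6% of its transcript sequence with Gm44502, a model laid over it on the same strand, Etfb 43.8% with Gm45233, and Fabp3 29.2% with Fabp3-ps1. Hadhb shares 18.1% with Gm13910, and Acot1 and Acot2 share 13.6% and 24.5% with each other. Of the exon bases of Acadvl, 42.9% lie under Dvl2 on the other strand, and the library kit does not mark strand. Dvl2 itself stood at 1.29 to 5.25 FPKM.

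**Figure D1:**
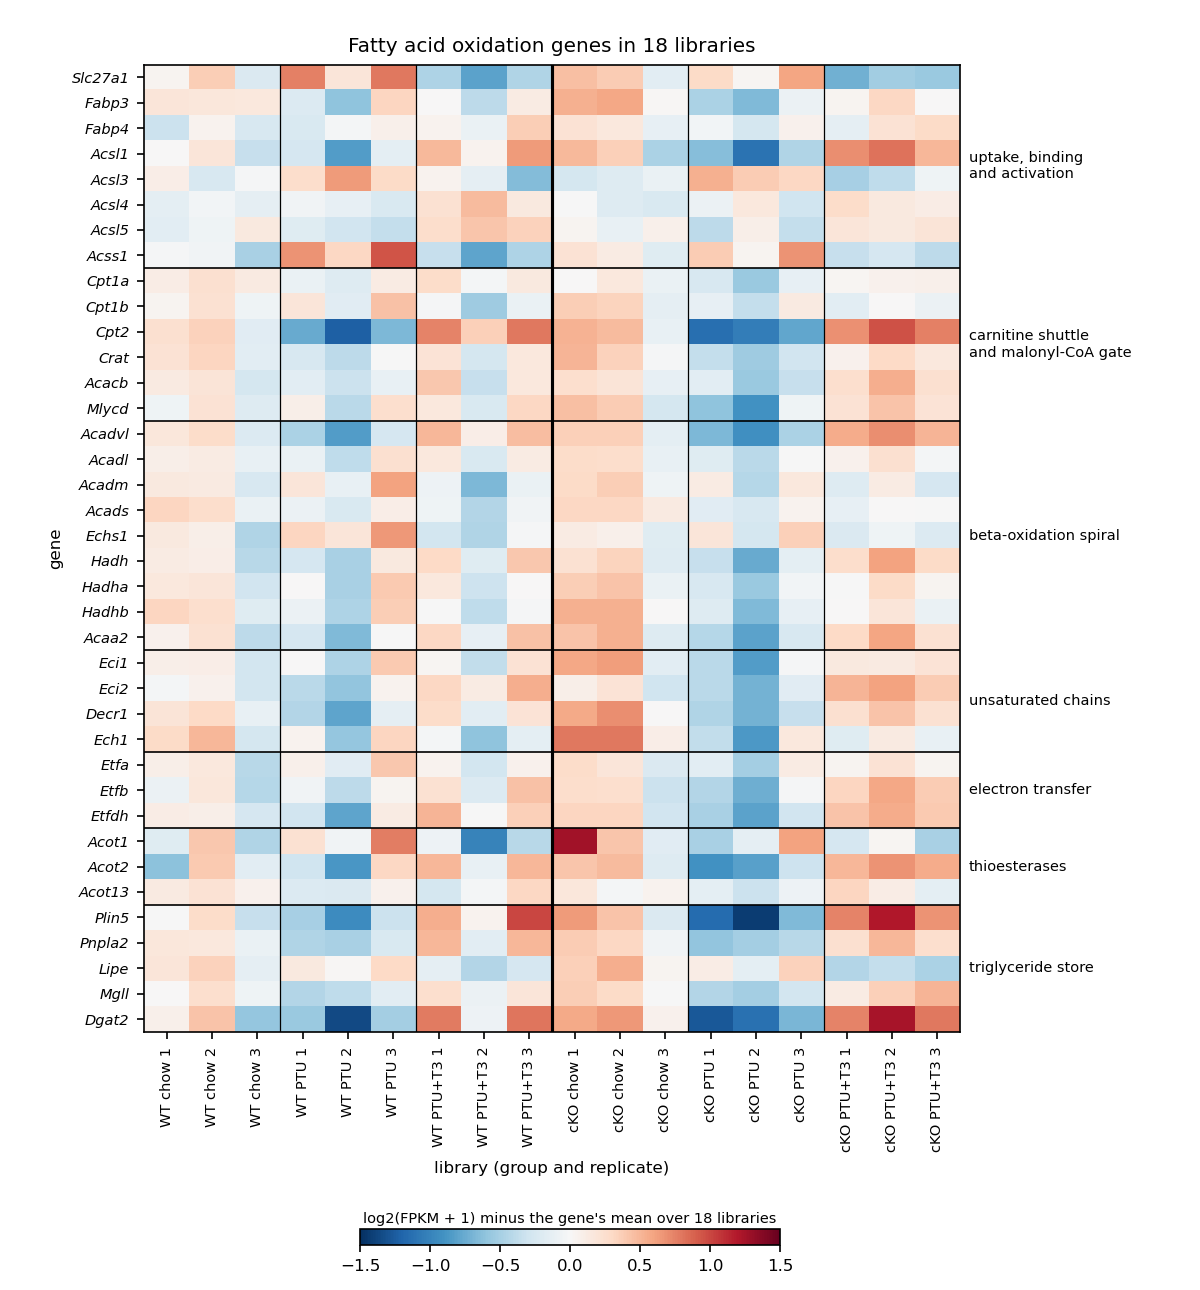
Each row is 1 of the 38 genes and each column 1 of the 18 libraries, and colour gives log2(FPKM + 1) minus the mean of that gene over the 18 libraries. Cpt2, Acadvl, Plin5 and Dgat2 are blue on PTU and mostly red with T3 in both genotypes, and Slc27a1 and Acss1 run the other way. In WT PTU+T3 replicate 2, Plin5 and Dgat2 lie close to their means. Single libraries such as cKO PTU replicate 2 stand below their group across most rows.

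Within a group the 38 genes moved together. In WT hearts, chow replicate 3 was the lowest library of its group for 32 of the 38 genes, PTU replicate 2 for 33 and PTU+T3 replicate 2 for 34. In cKO hearts, chow replicate 3 was the lowest for 35 and PTU replicate 2 for 30, while PTU+T3 replicates 1 and 3 shared the lowest place with 17 and 19 genes. In all 6 groups the library with the lowest sum over the 38 genes also had the lowest sum of 9 cardiomyocyte markers and the lowest total FPKM. WT PTU replicate 2, for example, held 13000 FPKM in the 38 genes, with 53680 FPKM in those markers, against 21240 and 72010 FPKM in WT PTU replicate 3. In whole hearts a smaller share of one cell type and less RNA per cell of that type cannot be told apart, and the part of these shared shifts in the results below was not tested.

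In WT hearts 34 of the 38 genes did not pass the test for PTU, and 17 passed it for T3 given after PTU. Of all genes tested, 16.8% passed for PTU and 44% for T3, so by this test neither count set the members apart. On PTU, Cpt2, which frees fatty acids from carnitine inside the mitochondrion, Acadvl, which starts the oxidation of long chains, and Decr1, which handles unsaturated chains, fell, and the acetate-activating enzyme Acss1 rose. With T3, Cpt2, Acadvl and Decr1 rose and Acss1 fell, and Dgat2, Plin5, Pnpla2 and Mgll of the triglyceride store rose with Acsl1, Acsl4, Acsl5, Eci2 and Etfdh. The uptake protein Slc27a1 fell with T3, and so did Acsl3, Echs1 and Lipe. These comparisons ask how the heart's oxidation genes respond to loss and return of thyroid hormone.

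By limma with Benjamini-Hochberg adjustment, 4 of the 38 genes were called for PTU against chow in WT, 1 higher and 3 lower, where a call is an adjusted p under 0.05 over all genes tested. That is 10.5% of the members beside 16.8% of all genes (8.01% higher and 8.75% lower), so by this test the share was no higher than the background. The median log2 fold change of the members was -0.21, with 27 of 38 below 0, against 0.00 for all genes. That lean rested on single libraries, since the median was -0.02 with 19 above and 19 below 0 without WT PTU replicate 2, and -0.10 without WT chow replicate 2. For PTU+T3 against PTU in WT, 17 were called, 12 higher and 5 lower, which is 44.7% beside 44% of all genes (22.3% higher and 21.8% lower). The median was 0.18, with 24 of 38 above 0, and it lay between 0.09 (without WT PTU+T3 replicate 3) and 0.30 (without WT PTU replicate 3) when 1 library was left out. The groups did not overlap for 10 members in the first comparison and 16 in the second, beside 35.6% and 50.7% of all genes. Both comparisons share the WT PTU libraries, so a reversal between them is not independent of the spread in those 3. Without the library with the highest sum of 5 atrial markers in each group, the counts were 2 and 12, and without the library with the highest sum of the 4 other than Nppa they were 1 and 11, with 2 libraries left a group. The 4 calls on PTU became 2 without chow replicate 1, chow replicate 2 or PTU replicate 1 of the WT libraries, and 10 when libraries were weighted by their fit. Without 1 library in each group, fewer of all genes were also called on PTU. These counts do not show whether members lost calls more often than other genes. The authors' deposited tables for these 2 comparisons have 11 and 20 of the 38 at a q under 0.05. Of all genes they tested, 16.8% and 35.6% had the same. There the members' share was the larger, so the reading depends on the test.

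In hearts labelled cKO more of the genes passed the test. On PTU 16 were called, 15 lower and 1 higher, which is 42.1% of the members beside 16% of all genes (6.43% higher and 9.58% lower), with a median of -0.51 and 33 of 38 below 0. Cpt2, Acadvl and Decr1 fell again, and Plin5, Pnpla2, Mgll and Dgat2 of the triglyceride store fell with Fabp3, Acsl1, Crat, Mlycd, Hadhb, Acaa2, Eci1 and Ech1. Acsl3 rose. With T3 after PTU 23 were called, 19 higher and 4 lower, which is 60.5% beside 46.7% of all genes (24.9% higher and 21.8% lower), with a median of 0.46 and 31 of 38 above 0. The groups did not overlap for 17 and 27 members, beside 32.4% and 55.4% of all genes. The 16 calls on PTU were the less stable of these counts. They became 7 without cKO chow replicate 1, 8 without cKO chow replicate 2 or cKO PTU replicate 1, 10 without cKO PTU replicate 2, 10 without the library highest in 5 atrial markers in each group and 2 without the library highest in the 4 other than Nppa. The 2 that stayed in that last setting were Cpt2 and Dgat2. The 23 calls with T3 became 20 in that setting. Without 1 library in each group, fewer of all genes were also called on PTU. The counts under left-out libraries do not show whether members lost calls more often than other genes.

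Cpt2, Acadvl and Decr1 were the 3 genes called in all 4 of these comparisons. The members called in WT on PTU and those called in cKO on PTU shared 3 genes in the same direction, 75% of the WT list and 18.8% of the cKO list. For T3 after PTU, 15 genes were shared in the same direction, 88.2% of the WT list and 65.2% of the cKO list. No gene called in both genotypes moved in opposite directions in either pair. Genes not called in both could differ in direction. On PTU the mean of Etfa went from 552.7 to 616.7 FPKM in WT and from 606.2 to 506.7 FPKM in cKO, and neither change was called. There were 9 members called in none of the 4, namely Acadl, Acadm, Acads, Hadha, Acot1, Acot13, Cpt1b, Etfa and Fabp4. Of all genes, 16.8% were called on PTU and 44% with T3 in WT, and 16% and 46.7% in cKO. The overlap of calls over all genes was not counted, so these counts do not set the members apart from other genes.

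**Figure D2:**
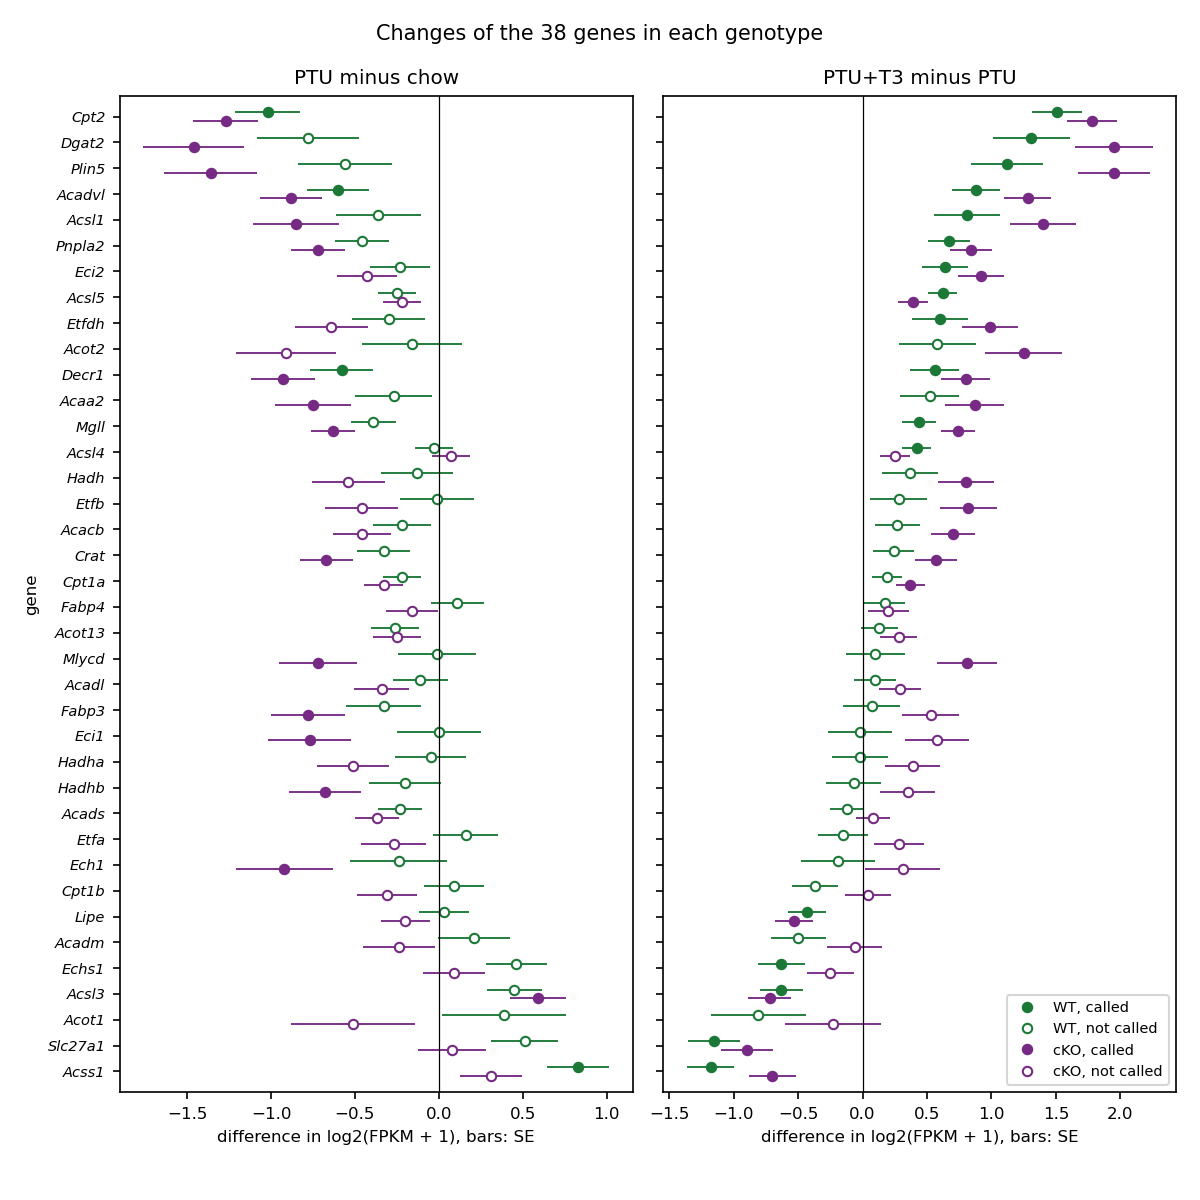
The x axes give the difference in log2(FPKM + 1) for PTU minus chow and for PTU+T3 minus PTU, the bars are standard errors, green is WT and purple cKO, and filled points were called. Genes are ordered by their T3 difference in WT, from Cpt2 at 1.51 to Acss1 at -1.18. The 2 panels share the PTU libraries.

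The counts by role that follow stand beside 16.8% of all genes called on PTU and 44% with T3 in WT. In cKO the shares of all genes were 16% and 46.7%. Among the 8 genes of uptake, binding and activation, 1 rose on PTU in WT hearts, and with T3 3 rose and 3 fell. In cKO hearts 1 rose and 2 fell on PTU, and 2 rose and 3 fell with T3. Slc27a1, a membrane protein that brings in long-chain fatty acids, measured 48.5, 61.01 and 40.3 FPKM on chow, 79.7, 53.3 and 82.3 FPKM on PTU, and 33.8, 26.4 and 34.1 FPKM with T3 in WT hearts. In cKO hearts it measured 64.3, 61.6 and 42.1 FPKM on chow, 57.6, 47.97 and 71.3 FPKM on PTU, and 28, 32.5 and 31.7 FPKM with T3. Every T3 library lay below every chow and PTU library in both genotypes, while chow and PTU libraries overlapped. With T3 it fell by 1.15 in log2 (SE 0.202, adjusted p = 0.000301) in WT and by 0.90 in log2 (SE 0.202, adjusted p = 0.00181) in cKO. On PTU its log2 fold change was 0.51 in WT (adjusted p = 0.098) and 0.08 in cKO (adjusted p = 0.833). Slc27a1 thus went down with T3 while most of the pathway's moving genes went up.

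Acss1, the mitochondrial enzyme that activates acetate, measured 120.2, 117 and 86.8 FPKM on chow, 195, 152 and 236 FPKM on PTU, and 95.7, 69.8 and 88.5 FPKM with T3 in WT hearts. The cKO libraries held 141, 133 and 107 FPKM on chow, 159, 125 and 195 FPKM on PTU, and 95.5, 102 and 92.4 FPKM with T3. The 3 WT PTU libraries were above all WT chow and T3 libraries, and in cKO the PTU and chow libraries overlapped. On PTU it rose in WT (log2 fold change 0.83, SE 0.185, adjusted p = 0.00651), and the cKO value was not called (log2 fold change 0.31, SE 0.185, adjusted p = 0.271). The WT call was lost without the library highest in atrial markers in each group, and also without Nppa among those markers (highest adjusted p = 0.115). With T3 it fell by 1.18 in log2 (SE 0.185, adjusted p = 0.000113) in WT and by 0.70 in log2 (SE 0.185, adjusted p = 0.00593) in cKO.

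Acsl1, the main acyl-CoA synthetase of the heart, measured 250.3, 284 and 197 FPKM on chow, 209.6, 139 and 225 FPKM on PTU, and 351, 260.3 and 391 FPKM with T3 in WT hearts. Its values in cKO were 352, 319.7 and 179 FPKM on chow, 161, 116 and 183 FPKM on PTU, and 407, 442 and 355 FPKM with T3. All T3 libraries were above all PTU libraries in both genotypes, and chow libraries overlapped those on PTU. With T3 it rose in WT (log2 fold change 0.81, SE 0.255, adjusted p = 0.0174) and in cKO (log2 fold change 1.40, SE 0.255, adjusted p = 0.00036). On PTU it fell by 0.85 in log2 (SE 0.255, adjusted p = 0.0344) in cKO and was not called in WT (log2 fold change -0.36, adjusted p = 0.355). The WT call with T3 was lost without WT PTU replicate 2, WT PTU+T3 replicate 1 or WT PTU+T3 replicate 3, and the cKO call on PTU without chow replicate 1 or 2 or PTU replicate 1 or 2 of that genotype.

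The other synthetases were far lower per length. Acsl3, which serves lipid droplet formation, measured 2.93, 2.10 and 2.62 FPKM on chow, 3.41, 4.70 and 3.47 FPKM on PTU, and 2.82, 2.35 and 1.35 FPKM with T3 in WT hearts. Hearts labelled cKO gave 2.07, 2.20 and 2.43 FPKM on chow, 4.30, 3.79 and 3.56 FPKM on PTU, and 1.60, 1.81 and 2.51 FPKM with T3. The PTU libraries were the highest 3 of each genotype without overlap. With T3 it fell by 0.63 in log2 (SE 0.166, adjusted p = 0.0058) in WT and by 0.72 in log2 (SE 0.166, adjusted p = 0.0021) in cKO. On PTU it rose in cKO (log2 fold change 0.59, SE 0.166, adjusted p = 0.0242) and was not called in WT (log2 fold change 0.45, adjusted p = 0.0749). The cKO call on PTU was lost without cKO chow replicate 1 or 2 or cKO PTU replicate 1. The pseudocount of 1 shrinks changes at levels this low. Acsl5 rose with T3 in WT (log2 fold change 0.62, SE 0.115, adjusted p = 0.000453) and in cKO (log2 fold change 0.39, SE 0.115, adjusted p = 0.0101), within a range of 6.90 to 12.9 FPKM over all libraries, and lost the cKO call without cKO PTU replicate 1. Acsl4, which prefers arachidonic acid, rose with T3 in WT (log2 fold change 0.42, SE 0.114, adjusted p = 0.00742), and the value in cKO was 0.25 (adjusted p = 0.0781). The carrier Fabp3 fell on PTU in cKO by 0.78 in log2 (SE 0.221, adjusted p = 0.0249), a call lost without any 1 of the cKO chow replicates 1 and 2 or the cKO PTU replicates 1 and 2. Fabp4, the carrier of endothelial and fat cells, was not called in any comparison, and its libraries ranged from 882 to 1423 FPKM.

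**Figure D3:**
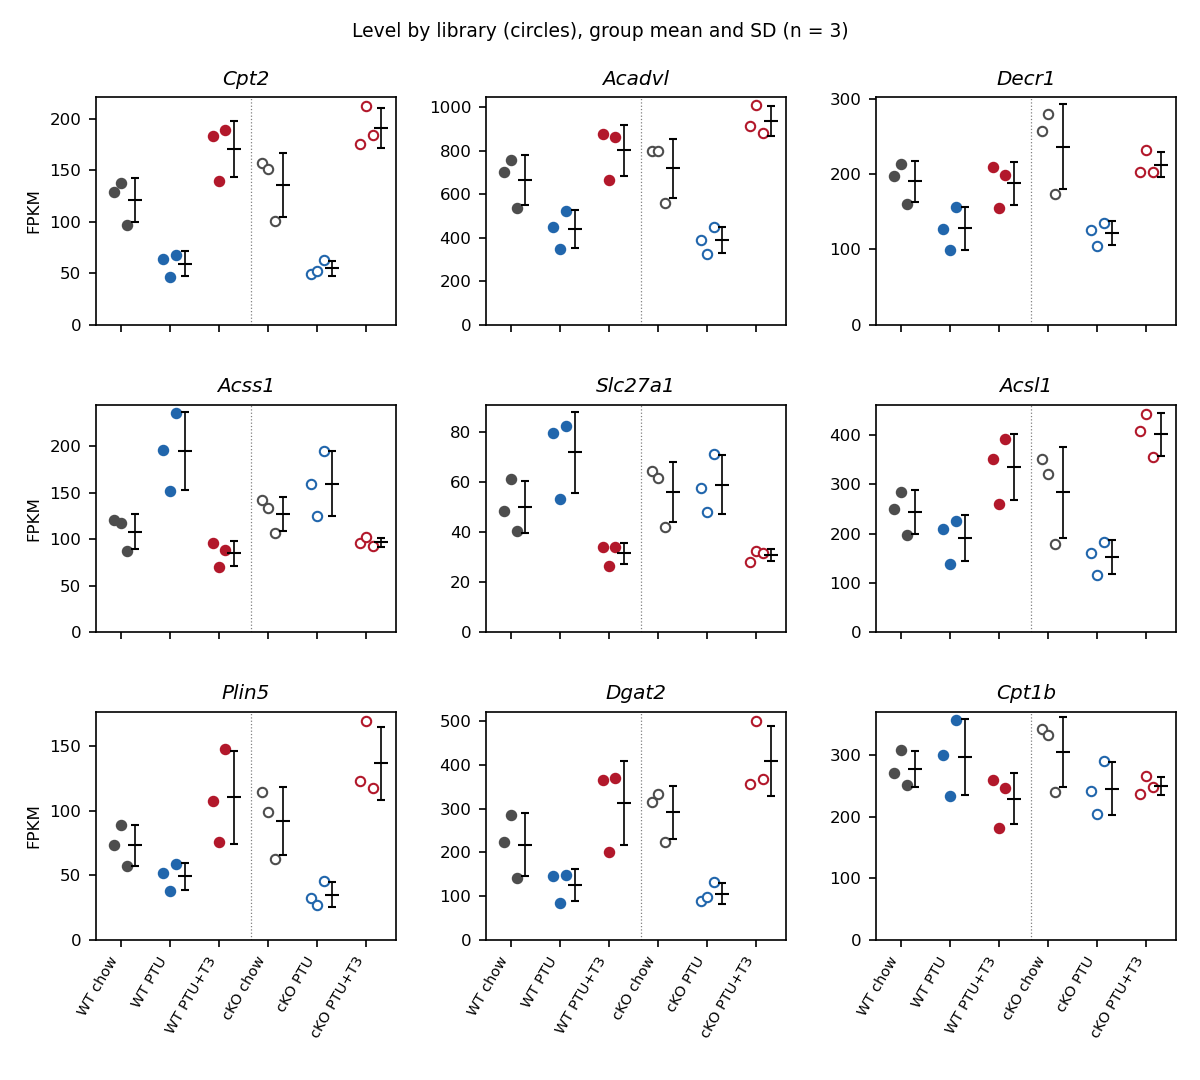
Each panel gives the FPKM level (y axis from 0) of 1 gene in the 18 libraries (circles, filled for WT and open for cKO), with the group mean and SD of 3 libraries. Cpt2 lies between 46.0 and 68.0 FPKM on PTU and between 139 and 212 FPKM with T3, whereas Cpt1b overlaps between all treatments.

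The carnitine shuttle and the malonyl-CoA gate count 6 genes. Cpt2 alone was called among them in WT, lower on PTU and higher with T3. In cKO 3 fell on PTU and 5 rose with T3. Cpt2, carnitine palmitoyltransferase 2 of the inner mitochondrial membrane (chromosome 4, from 107903981 to 107923610 in GRCm38, minus strand), measured 129, 138 and 96.6 FPKM on chow, 64.2, 45.96 and 67.99 FPKM on PTU, and 183, 139 and 189 FPKM with T3 in WT hearts. In cKO hearts it measured 157, 151 and 100.4 FPKM on chow, 49.1, 52.6 and 63.2 FPKM on PTU, and 176, 212 and 184 FPKM with T3. The PTU libraries were the lowest 3 and the T3 libraries the highest 3 of each genotype, without overlap with chow in either direction. On PTU it fell by 1.02 in log2 (SE 0.192, adjusted p = 0.00218) in WT and by 1.27 in log2 (SE 0.192, adjusted p = 0.000459) in cKO. It rose with T3 in WT (log2 fold change 1.51, SE 0.192, adjusted p = 1.49e-05) and in cKO (log2 fold change 1.78, SE 0.192, adjusted p = 2.44e-06). These 4 calls were kept under each of the 14 alternatives run for each comparison.

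Cpt1b and Cpt1a make the carnitine ester at the outer membrane and are the step that malonyl-CoA blocks. The muscle form Cpt1b ranged from 181 to 358 FPKM over all libraries and was not called in any comparison, and reads of the model Gm44502 may be included in it. Its log2 fold change was 0.09 on PTU and -0.37 with T3 in WT (adjusted p = 0.788 and 0.106). The liver form Cpt1a measured 17.8, 19.6 and 18.2 FPKM on chow, 15.2, 14.3 and 18.02 FPKM on PTU, and 20.1, 16.1 and 18.4 FPKM with T3 in WT hearts. The cKO libraries held 16.6, 18.5 and 15.3 FPKM on chow, 13.8, 10.8 and 14.99 FPKM on PTU, and 16.8, 17.3 and 17.4 FPKM with T3. The levels were close together, and only the cKO libraries on PTU lay below both other treatments of their genotype. With T3 it rose in cKO (log2 fold change 0.37, SE 0.114, adjusted p = 0.0142), a call lost without cKO PTU replicate 2.

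Mlycd, which degrades malonyl-CoA, measured 51.6, 62.98 and 46.95 FPKM on chow, 57.5, 40.5 and 64.4 FPKM on PTU, and 60.5, 45.9 and 67.5 FPKM with T3 in WT hearts. Its values in cKO were 74.4, 70.9 and 44.8 FPKM on chow, 35.3, 28.3 and 51.4 FPKM on PTU, and 63.1, 73.3 and 62.5 FPKM with T3. In WT the treatments overlapped throughout, and in cKO all T3 libraries exceeded all PTU libraries. In cKO it fell on PTU by 0.72 in log2 (SE 0.232, adjusted p = 0.0473) and rose with T3 (log2 fold change 0.81, SE 0.232, adjusted p = 0.0096). The PTU call was lost under 8 of 14 alternatives (highest adjusted p = 0.181), among them leaving out cKO chow replicate 1 or 2 or cKO PTU replicate 1 or 2, and the T3 call without cKO PTU replicate 2. Acacb, which makes malonyl-CoA at the mitochondrion, rose with T3 in cKO (log2 fold change 0.70, SE 0.173, adjusted p = 0.00371). Crat, which buffers acetyl-CoA as its carnitine ester, fell on PTU in cKO by 0.67 in log2 (SE 0.16, adjusted p = 0.0102) and rose with T3 (log2 fold change 0.57, SE 0.16, adjusted p = 0.00814), and lost the PTU call without cKO chow replicate 1. In WT none of these 3 was called, with log2 fold changes from -0.33 to -0.01 on PTU and from 0.10 to 0.27 with T3.

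Of the 9 genes of the beta-oxidation spiral, Acadvl was called in all 4 comparisons and most others in none in WT. In WT 1 fell on PTU, and with T3 1 rose and 1 fell. In cKO 3 fell on PTU and 3 rose with T3. Acadvl, the very long chain acyl-CoA dehydrogenase, measured 702, 756 and 538 FPKM on chow, 449, 348 and 521 FPKM on PTU, and 876, 668 and 861 FPKM with T3 in WT hearts. Hearts labelled cKO gave 799, 797 and 561 FPKM on chow, 389, 328 and 448 FPKM on PTU, and 914, 1012 and 884 FPKM with T3. The PTU libraries were the lowest 3 of each genotype without overlap, and in cKO the T3 libraries were also above all chow libraries. On PTU it fell by 0.60 in log2 (SE 0.183, adjusted p = 0.033) in WT and by 0.88 in log2 (SE 0.183, adjusted p = 0.00471) in cKO, and with T3 it rose in WT (log2 fold change 0.88, SE 0.183, adjusted p = 0.00116) and cKO (log2 fold change 1.28, SE 0.183, adjusted p = 3.68e-05). The WT call on PTU was lost under 7 of 14 alternatives, among them leaving out chow replicate 1 or 2 or PTU replicate 1 or 2.

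The dehydrogenases for shorter chains did not share this pattern of calls. Acadm, the medium chain enzyme, ranged from 417 to 1009 FPKM, with log2 fold changes of 0.21 on PTU and -0.50 with T3 in WT (adjusted p = 0.549 and 0.0665). Acadl and Acads, for long and short chains, ranged from 517 to 831 FPKM and from 114 to 195 FPKM and were not called in any comparison. Echs1, the short chain hydratase, fell with T3 in WT by 0.63 in log2 (SE 0.182, adjusted p = 0.0103), and its value in cKO was -0.25 (adjusted p = 0.267). Its WT call was lost without WT PTU replicate 3. Acaa2, the thiolase that cleaves off acetyl-CoA, fell on PTU in cKO by 0.75 in log2 (SE 0.229, adjusted p = 0.0357) and rose with T3 (log2 fold change 0.87, SE 0.229, adjusted p = 0.00574). Hadh, the dehydrogenase of hydroxyacyl-CoA, rose with T3 in cKO (log2 fold change 0.80, SE 0.216, adjusted p = 0.00645), and Hadhb fell on PTU in cKO by 0.68 in log2 (SE 0.215, adjusted p = 0.0422). The PTU calls of Acaa2 and Hadhb were lost under 7 and 8 of 14 alternatives, both without cKO chow replicate 1 or 2 or cKO PTU replicate 1 or 2. Hadha, the partner subunit of Hadhb, was not called in any comparison, with a log2 fold change of -0.51 on PTU in cKO (adjusted p = 0.119).

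Unsaturated fatty acids need 4 further enzymes of the list. In WT 1 of them fell on PTU and 2 rose with T3, and in cKO 3 fell on PTU and 2 rose with T3. Decr1, a reductase of dienoyl-CoA, measured 198, 213 and 159.8 FPKM on chow, 127, 99.6 and 157 FPKM on PTU, and 209, 155 and 199 FPKM with T3 in WT hearts. In cKO hearts it measured 257, 279 and 173 FPKM on chow, 126, 105 and 135 FPKM on PTU, and 203, 232 and 203 FPKM with T3. All PTU libraries were below all chow libraries in both genotypes, whereas with T3 the lowest WT library, at 155 FPKM, fell under the highest on PTU, at 157 FPKM. On PTU Decr1 fell by 0.58 in log2 (SE 0.189, adjusted p = 0.0445) in WT and by 0.93 in log2 (SE 0.189, adjusted p = 0.00434) in cKO, and with T3 it rose in WT (log2 fold change 0.56, SE 0.189, adjusted p = 0.0243) and cKO (log2 fold change 0.80, SE 0.189, adjusted p = 0.00262). The WT calls were lost under 8 of 14 alternatives on PTU and 6 of 14 with T3.

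Eci2, an isomerase that moves double bonds, measured 115, 122 and 96.5 FPKM on chow, 88.4, 77.1 and 122 FPKM on PTU, and 145, 127 and 171 FPKM with T3 in WT hearts. The cKO libraries held 125, 135 and 95.3 FPKM on chow, 87.9, 71.5 and 104 FPKM on PTU, and 168, 178 and 152 FPKM with T3. The T3 libraries were the highest 3 of each genotype, above chow and PTU. After T3 the level rose in WT (log2 fold change 0.64, SE 0.178, adjusted p = 0.00868) and in cKO (log2 fold change 0.92, SE 0.178, adjusted p = 0.000539). Its partner isomerase Eci1 measured 314, 316 and 244 FPKM on chow, 295, 213 and 388 FPKM on PTU, and 300.2, 228 and 342 FPKM with T3 in WT hearts. In cKO hearts Eci1 measured 442, 454 and 263 FPKM on chow, 222, 165 and 292 FPKM on PTU, and 326, 323 and 341 FPKM with T3. In WT its treatments overlapped, and in cKO chow replicates 1 and 2 were the highest of all 18 libraries. Eci1 fell on PTU in cKO by 0.77 in log2 (SE 0.249, adjusted p = 0.0474), a call lost under 9 of 14 alternatives. Ech1, a dienoyl-CoA isomerase, fell on PTU in cKO by 0.92 in log2 (SE 0.288, adjusted p = 0.0405) and lost that call under 8 of 14.

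Of the electron transfer genes, none of 3 was called on PTU in either genotype, with p under 0.05 before adjustment for 0 in WT and 1 in cKO. Etfdh, which hands electrons from the flavoprotein to ubiquinone, rose with T3 in WT (log2 fold change 0.60, SE 0.218, adjusted p = 0.0337) and in cKO (log2 fold change 0.99, SE 0.218, adjusted p = 0.00159), and lost the WT call under 8 of 14 alternatives. Etfb, a subunit of the flavoprotein, rose with T3 in cKO (log2 fold change 0.82, SE 0.219, adjusted p = 0.00592), while the other subunit, Etfa, had a log2 fold change of 0.28 (adjusted p = 0.243). Among the 3 thioesterases, which split acyl-CoA, Acot2 alone was called, higher with T3 in cKO (log2 fold change 1.25, SE 0.299, adjusted p = 0.00314). Acot1 and Acot2 share sequence, so the split of reads between them is uncertain. Acot1 had the largest ratio of highest to lowest library, from 2.27 to 14.7 FPKM over all libraries, and its highest value was in cKO chow replicate 1.

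The 5 genes of the triglyceride store were all called with T3 in both genotypes, 4 higher and 1 lower. Of all genes, 44% were called with T3 in WT and 46.7% in cKO. In WT the calls of Mgll and Lipe with T3 were each lost under 4 of 14 alternatives (highest adjusted p = 0.204 and 0.11), Mgll without PTU replicate 1 or PTU+T3 replicate 1 and Lipe without PTU replicate 1 or 3 or PTU+T3 replicate 2 or 3. On PTU none was called in WT, with 3 at p under 0.05 before adjustment, and 4 fell in cKO. Dgat2, the last enzyme of triglyceride synthesis, measured 224, 286 and 142 FPKM on chow, 145, 82.7 and 149 FPKM on PTU, and 366, 202 and 370.1 FPKM with T3 in WT hearts. Its values in cKO were 316, 334 and 223 FPKM on chow, 87.3, 97.5 and 131 FPKM on PTU, and 357, 501 and 368 FPKM with T3. All T3 libraries exceeded all PTU libraries in both genotypes, and T3 and chow overlapped in WT. With T3 it rose in WT (log2 fold change 1.31, SE 0.301, adjusted p = 0.00263) and cKO (log2 fold change 1.95, SE 0.301, adjusted p = 9.17e-05). On PTU it fell in cKO by 1.46 in log2 (SE 0.301, adjusted p = 0.00504), and the WT value was -0.78 (adjusted p = 0.0904).

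Plin5, the droplet protein of oxidative tissue that ties droplets to mitochondria (chromosome 17, from 56111601 to 56117596 in GRCm38, minus strand), measured 73.2, 89.1 and 57.4 FPKM on chow, 51.7, 37.6 and 58.3 FPKM on PTU, and 107, 75.7 and 148 FPKM with T3 in WT hearts. Hearts labelled cKO gave 114, 98.9 and 62.7 FPKM on chow, 32.4, 26.7 and 45.8 FPKM on PTU, and 123, 169 and 117 FPKM with T3. The 3 cKO PTU libraries were at 45.8 FPKM or less and the 3 cKO T3 libraries at 117 FPKM or more, and in WT the T3 and PTU libraries also did not overlap. It rose with T3 in WT (log2 fold change 1.12, SE 0.279, adjusted p = 0.00453) and cKO (log2 fold change 1.95, SE 0.279, adjusted p = 4.63e-05). On PTU it fell in cKO by 1.36 in log2 (SE 0.279, adjusted p = 0.00484), and the WT value was -0.56 (adjusted p = 0.183). The highest T3 library for Plin5 and Dgat2 in cKO was replicate 2 in both cases.

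Pnpla2, the first lipase of droplet triglyceride, measured 145, 143 and 119.8 FPKM on chow, 94.01, 91.6 and 110.1 FPKM on PTU, and 182, 115 and 182 FPKM with T3 in WT hearts. In cKO hearts it measured 167, 159 and 124 FPKM on chow, 84.7, 89.9 and 95.8 FPKM on PTU, and 152, 183 and 154 FPKM with T3. All PTU libraries were below all chow and T3 libraries in both genotypes. After T3 the level rose in WT (log2 fold change 0.67, SE 0.161, adjusted p = 0.00336) and cKO (log2 fold change 0.84, SE 0.161, adjusted p = 0.000503), and on PTU it fell in cKO by 0.72 in log2 (SE 0.161, adjusted p = 0.00726). Mgll, the lipase of the last step, measured 69.4, 82.7 and 66.04 FPKM on chow, 50.9, 53 and 61.98 FPKM on PTU, and 82.7, 65.3 and 78.3 FPKM with T3 in WT hearts. In cKO hearts Mgll measured 89.98, 84.4 and 69.2 FPKM on chow, 50.7, 48.3 and 57.1 FPKM on PTU, and 75.5, 89.3 and 99.2 FPKM with T3. Its PTU libraries were also the lowest 3 of each genotype without overlap. With T3 it rose in WT (log2 fold change 0.44, SE 0.132, adjusted p = 0.0133) and cKO (log2 fold change 0.74, SE 0.132, adjusted p = 0.00027), and on PTU it fell in cKO by 0.63 in log2 (SE 0.132, adjusted p = 0.0051). Lipe, the hormone-sensitive lipase between them (12.4 to 25.96 FPKM over all libraries), moved the other way and fell with T3 by 0.43 in log2 (SE 0.148, adjusted p = 0.0281) in WT and by 0.53 in log2 (SE 0.148, adjusted p = 0.00801) in cKO.

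Set against chow, the hearts given T3 after PTU differed in few of these genes. In WT 3 of 38 were called, 2 higher (Acsl4 and Acsl5) and 1 lower (Slc27a1), which is 7.89% beside 14.7% of all genes (7.68% higher and 7% lower). The log2 fold changes were 0.39, 0.37 and -0.64 (adjusted p = 0.0313, 0.0431 and 0.0444). No member was called without chow replicate 1, chow replicate 2 or PTU+T3 replicate 2 of the WT libraries, and 1 was called without WT PTU+T3 replicate 1 or 3. In cKO 2 were called, both lower (5.26% beside 20.9% of all genes, 11.7% higher and 9.15% lower), Slc27a1 at -0.82 and Lipe at -0.73 (adjusted p = 0.00939 and 0.00274). Cpt2 had log2 fold changes of 0.49 in WT and 0.51 in cKO (adjusted p = 0.0951 and 0.0715), and its T3 libraries were above its chow libraries in both genotypes. A miss of the threshold does not show that T3 brought the other members back to chow levels. The groups did not overlap for 6 members in WT and 15 in cKO, beside 31.4% and 41.7% of all genes.

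No member was called between the genotypes. For cKO against WT on chow, on PTU, with T3 and averaged over treatments, limma called 0 of 38 members, beside 0% of all 12584 genes each time. Before adjustment p was under 0.05 for 0, 2, 0 and 1 members, and in the authors' deposited tables a q under 0.05 was given to 0 members in each of the 3 genotype comparisons, beside 0.664%, 0.95% and 0.991% of their genes on chow, on PTU and with T3. The members at p under 0.05 were Cpt1a and Mlycd on PTU and Cpt1a averaged over treatments. The libraries of the genotypes did not overlap for 0 members on chow, 0 on PTU and 2 with T3 (Acsl5 lower and Acadvl higher in cKO), beside 8.5%, 7.53% and 8.54% of all genes. Averaged over treatments Cpt1a had a log2 difference of -0.15 (95% interval -0.29 to -0.01, adjusted p = 1), Decr1 of 0.14 (95% interval -0.09 to 0.38, adjusted p = 1) and Mgll of 0.10 (95% interval -0.07 to 0.26, adjusted p = 1).

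The interaction of treatment with genotype, the test of whether the response differed, called 0 members and 0% of all genes for PTU and for T3. Before adjustment p was under 0.05 for 2 members for PTU (Eci1 and Mlycd) and 1 for T3 (Mlycd), and for 804 and 820 of all genes. The larger number of calls in cKO is therefore not a shown difference between genotypes. The interaction of PTU with genotype was -0.77 (95% interval -1.52 to -0.02, adjusted p = 0.765) for Eci1, -0.71 (95% interval -1.41 to -0.01, adjusted p = 0.765) for Mlycd and -0.80 (95% interval -1.64 to 0.04, adjusted p = 0.765) for Plin5. The interaction of T3 was 0.71 (95% interval 0.01 to 1.41, adjusted p = 0.696) for Mlycd, 0.83 (95% interval -0.01 to 1.67, adjusted p = 0.696) for Plin5 and 0.48 (95% interval -0.08 to 1.04, adjusted p = 0.696) for Acss1. The 6 intervals each have 1 end near 0 and the other above 1 in size.

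Most members leaned the same way in these contrasts when all libraries were used. The PTU interaction was below 0 for 34 of 38, with a median of -0.38, and the T3 interaction above 0 for 34 of 38, with a median of 0.39. The PTU libraries enter both. Against WT, cKO hearts were higher for 34 of 38 on chow (median 0.17), lower for 35 of 38 on PTU (median -0.22) and higher for 32 of 38 with T3 (median 0.17). The chow lean turned to 13 above and 25 below 0 (median -0.02) without the library highest in Myl4, Myl7, Sln and Bmp10 in each group, and its median was 0.05 without WT chow replicate 3 and 0.07 without cKO chow replicate 1. On PTU the median was -0.05 without WT PTU replicate 3 and -0.09 without cKO PTU replicate 2, and with T3 it was 0.03 without WT PTU+T3 replicate 2. Leaving out 1 library gave interaction medians of -0.56 to -0.24 for PTU and 0.22 to 0.54 for T3, with the values nearest 0 without WT PTU replicate 3 for both and also without WT chow replicate 3 for PTU. Members share libraries and are not replicates, and cKO chow replicates 1 and 2 held the highest sums over the 38 genes of all libraries (24410 and 24570 FPKM) while cKO PTU replicate 2 held the lowest (11620 FPKM). Of 779 other genes with a mean of at least 100 FPKM, 603 were below 0 in the PTU interaction (median -0.15) and 615 above 0 in the T3 interaction (median 0.18), so the lean was not limited to fatty acid oxidation. Among the 26 members at that level, 25 were below 0 for PTU (median -0.40) and 26 above 0 for T3 (median 0.40). The lean was thus larger in the members.

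Other genes of the same metabolism moved in part with the members. The counts by list, here and in the paragraphs on other lists below, stand beside the calls among all genes. In WT 16.8% of all genes were called on PTU and 44% with T3, and in cKO 16% and 46.7%. List counts near these shares are no result about the list. Of 26 other genes of mitochondrial fatty acid use, 1 rose and 7 fell on PTU in WT, and 10 rose and 5 fell with T3. In cKO 7 fell on PTU, and 15 rose and 2 fell with T3. Slc25a20, the carrier between the outer and inner carnitine enzymes, stood at 131 ± 13.7 FPKM on chow, 90.6 ± 24.6 FPKM on PTU and 179.6 ± 30.3 FPKM with T3 in WT (SD, n = 3). It rose with T3 in WT (log2 fold change 1.0, SE 0.197, adjusted p = 0.000753) and cKO (log2 fold change 1.44, SE 0.197, adjusted p = 2.47e-05). Acsl6, another acyl-CoA synthetase, rose with T3 by 2.42 in log2 (SE 0.266, adjusted p = 4.98e-06) in WT, the thioesterase Acot11 by 1.23 in log2 (SE 0.14, adjusted p = 5.12e-06), and the CoA diphosphatase Nudt7, a peroxisomal enzyme, by 1.23 in log2 (SE 0.185, adjusted p = 7.22e-05).

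Of 16 tested genes of peroxisomal oxidation, 6 fell on PTU in WT and in cKO. With T3 9 rose in WT and 12 rose in cKO. The peroxisomal fatty acid transporter Abcd2 rose with T3 by 2.31 in log2 (SE 0.104, adjusted p = 4.56e-10) in WT, and its relative Abcd3 rose by 1.89 in log2 (SE 0.18, adjusted p = 8.48e-07). Of 21 tested genes of lipid uptake and droplets, 2 rose and 4 fell on PTU in WT, and 8 rose and 3 fell with T3. In cKO 5 fell on PTU, and 9 rose and 1 fell with T3. With T3 in WT the lipase inhibitor Angptl4 rose by 2.14 in log2 (SE 0.372, adjusted p = 0.000324) and the acyltransferase Gpam by 1.22 in log2 (SE 0.188, adjusted p = 9.74e-05), and the lipoprotein lipase gene Lpl fell by 1.79 in log2 (SE 0.203, adjusted p = 5.06e-06). Cd36, the fatty acid translocase, was not called in any of the 4 comparisons, and its group means lay between 572 and 650.3 FPKM.

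Of 23 regulators of the pathway, 2 rose and 3 fell on PTU in WT, and 8 rose and 9 fell with T3. In cKO 2 rose and 6 fell on PTU, and 9 rose and 7 fell with T3. Ppara, the nuclear receptor best known for inducing these genes, was not called in any of the 4 comparisons, with group means from 13.8 to 18.65 FPKM. Ppargc1a, its coactivator, stood at 21.8 ± 3.66 FPKM on chow, 50.1 ± 20.9 FPKM on PTU and 15.6 ± 1.75 FPKM with T3 in WT (SD, n = 3). It rose on PTU (log2 fold change 1.10, SE 0.247, adjusted p = 0.00714) and fell with T3 by 1.55 in log2 (SE 0.247, adjusted p = 0.000144), the reverse of Cpt2. With T3 in WT the factor Klf15 fell by 1.52 in log2 (SE 0.247, adjusted p = 0.000169) and the thyroid hormone receptor Thra by 1.43 in log2 (SE 0.088, adjusted p = 9.41e-09).

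Of 12 genes of glucose use, 2 rose and 2 fell on PTU in either genotype, and with T3 2 rose and 7 fell in WT and 4 rose and 4 fell in cKO. Pdk4, the kinase that shuts pyruvate out of oxidation, fell on PTU by 1.85 in log2 (SE 0.439, adjusted p = 0.0109) in WT and rose with T3 (log2 fold change 2.45, SE 0.439, adjusted p = 0.000462). Pdhb, a subunit of the dehydrogenase that this kinase acts on, rose with T3 by 1.32 in log2 (SE 0.169, adjusted p = 1.63e-05), and Pdk1 fell by 1.26 in log2 (SE 0.124, adjusted p = 1.21e-06). Of 13 general mitochondrial genes, 2 fell on PTU in WT and 3 in cKO, and with T3 4 rose and 1 fell in WT and 6 rose in cKO. With T3 in WT cytochrome c (Cycs) rose by 1.27 in log2 (SE 0.151, adjusted p = 8.21e-06) and Idh3a by 1.05 in log2 (SE 0.138, adjusted p = 2.09e-05), while Ogdh fell by 0.55 in log2 (SE 0.154, adjusted p = 0.00888).

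Markers of other cells moved with some of these comparisons. Of all genes, 16.8% were called on PTU and 44% with T3 in WT, and 16% and 46.7% in cKO. Of 8 tested macrophage markers, 6 fell on PTU and 7 rose with T3 in WT, and in cKO 0 were called on PTU, with 5 at p under 0.05 before adjustment, and 6 rose with T3. Their summed level in WT was 218 to 381 FPKM on chow, 112 to 181 FPKM on PTU and 343 to 463 FPKM with T3. In cKO it was 259 to 322 FPKM, 124 to 331 FPKM and 333 to 391 FPKM. Of 4 markers of red blood cells, 3 fell on PTU and 2 rose with T3 in cKO and 0 were called in WT. Of 9 cardiomyocyte markers, 2 rose on PTU in WT and 1 rose and 4 fell with T3, and in cKO 2 fell on PTU and 3 rose with T3. Of 9 endothelial markers, Tie1 was called in 3 of these comparisons, and their sum stayed between 304 and 410.3 FPKM in all libraries. Of 7 fibroblast markers, 1 (Tcf21) fell with T3 in cKO, and of 4 smooth muscle markers Acta2 fell on PTU in WT and rose with T3 in both genotypes. Col1a1, 1 of the fibroblast markers, ranged from 7.73 to 170 FPKM over single libraries. The part of these shifts in the members' results was not tested.

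Lipe, Mgll, Dgat2 and Fabp4 are also genes of fat cells. None of 6 tested adipocyte markers of a list of 9 was called in these comparisons, with 0 at p under 0.05. Their sum lay between 1.40 and 145 FPKM, highest in WT PTU+T3 replicate 2. In that library the leptin gene Lep stood at 1.14 FPKM and Plin1 at 3.02 FPKM, their highest values. That library was the lowest of its group for Dgat2, Lipe, Mgll and Fabp4, as it was for 34 of the 38 members. cKO PTU replicate 3, with a marker sum of 61.3 FPKM, was the highest of its group for the same genes. It was the highest of its group for 34 of the 38 members. The part of fat cells in these levels was not tested. Of the brown fat markers Ucp1 did not exceed 1.24 FPKM in any library and Elovl3 did not exceed 0.169 FPKM, while Cidea, also a lipid droplet gene, was the only marker of that list tested and rose with T3 in both genotypes.

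**Figure D4:**
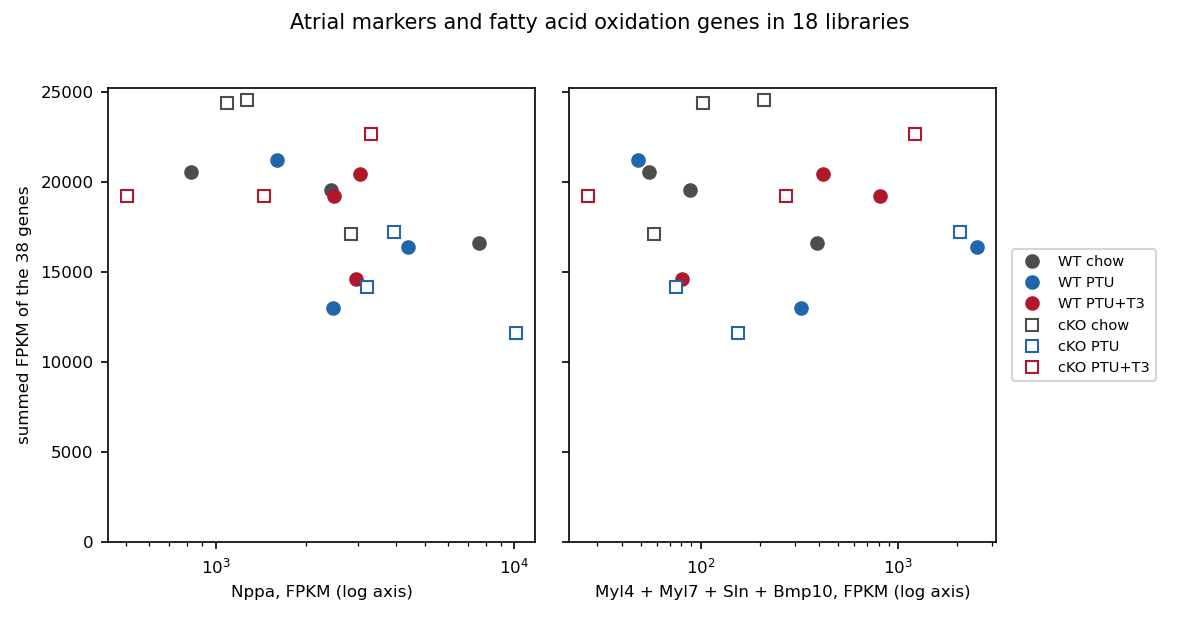
The y axis gives the summed FPKM of the 38 genes and the x axes (log scale) the FPKM of Nppa (left) and the summed FPKM of Myl4, Myl7, Sln and Bmp10 (right), with 1 point per library. cKO PTU replicate 2, highest in Nppa at 10080 FPKM, is lowest in the 38 genes, and the libraries highest in the other 4 markers, WT PTU replicate 1 and cKO PTU replicate 3, are not.

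Atrial genes varied strongly between libraries of 1 group. No atrial marker of 5 was called in the treatment comparisons, with p under 0.05 before adjustment for 1 with T3 against PTU in cKO and for 0 elsewhere. All 5 were above 0 for PTU against chow, with a median log2 fold change of 1.43 in WT and 1.45 in cKO. Nppa, which heart muscle under load also makes, formed 63.6% to 98.5% of the summed atrial level and ranged from 507 to 10080 FPKM. The other 4 markers, Myl4, Myl7, Sln and Bmp10, summed to 27.0 to 2515 FPKM, and Bmp10 stood at the floor of 0.01 FPKM in 10 of 18 libraries. The library with the highest sum of the 5 markers was the lowest of its group over the 38 genes in 3 of 6 groups, and the library with the highest sum of the 4 without Nppa in 1 of 6. The amount of atrium in a library was not stated, and its part in the results was not tested beyond the counts given without those libraries.

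The authors' deposited table for PTU against chow in WT gives a q under 0.05 for 11 of the 38 genes, 4 higher and 7 lower, beside 16.8% of the genes it tested. Beside the 4 genes called here, it has Slc27a1, Acsl3 and Echs1 higher and Plin5, Pnpla2, Mgll and Dgat2 lower. Their table for PTU+T3 against PTU has 20 members, 14 higher and 6 lower, beside 35.6% of its genes. Beyond the genes called here in WT, it has Acaa2 and Acot2 higher and Acadm and Acot1 lower. Acadm and Acot1 were called here in none of the PTU and T3 comparisons of either genotype. Lipe, called lower here in WT, is not called in their table (q = 0.0501). Their table for PTU+T3 against chow has 5, with Acsl4, Cpt2, Plin5 and Dgat2 higher and Slc27a1 lower, beside 12.4% of its genes.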

How the data were processed

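The authors deposited gene-level FPKM values for 18 libraries. Bowtie2, Cufflinks and mm10 are named, without versions, per the submitters' processing notes, and no source used here names the annotation. The authors' deposited tables also hold p-values and q-values per pairwise comparison. A gene was tested where 3 or more libraries reached 1 FPKM (12584 of 24341), leaving out 2 with failed estimates and 4 rows with repeated names, and values were taken as log2(FPKM + 1), which understates changes of low genes. A model with 6 group means (12 residual degrees of freedom) was fitted with limma 3.58.1 in R 4.3.3 (trended, robust), and p-values were adjusted by Benjamini-Hochberg within each of 12 comparisons. The fit was tested on simulated data in which genes varied independently, unlike the members here, which shifted together by library. There it recovered 56.2% of 1.5-fold PTU changes in WT, and 22.7% of 1.5-fold and 67.3% of 2-fold interactions of PTU with genotype. A count of 0 can thus miss interactions of this size. Replicates are numbered in accession order. The members, the other gene lists and the rule for named genes (calls on PTU in WT, the 10 largest T3 calls in WT, the smallest genotype and interaction p, and up to 3 per list) were chosen with earlier results of these data known. A gene that this rule names is not reported here. Alternatives were a pseudocount of 0.1, other filters, aligned medians, fewer groups, library weights and left-out libraries. Positions are from GENCODE models of GRCm38, sequences from RefSeq. The ends of the log2 intervals cover the spread between libraries only.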

Additional observations from a re-analysis of the deposited data

How the results depend on the processing

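No called member was called in the opposite direction under any alternative, and the counts of 0 members for genotype and interaction stayed 0 in all settings run. For PTU against chow in WT, 4 members became 2 without the filter on low values, 10 with library weights, 2 without the library highest in 5 atrial markers in each group and 1 when Nppa was left out of those markers, an alternative chosen after seeing the data. Leaving out 1 library gave 2 to 5 (2 without chow replicate 1, chow replicate 2 or PTU replicate 1 of WT). For PTU+T3 against PTU in WT, 17 became 11 without the library highest in the 4 atrial markers, and 13 to 18 without 1 library. For PTU+T3 against chow in WT, 3 became 1 without the filter, 0 with only the groups compared, 5 with library weights and 1 without the library highest in the 4 atrial markers, and 0 to 4 without 1 library. For PTU against chow in cKO, 16 became 10 without the filter, 9 with only the groups compared, 10 without the library highest in 5 atrial markers and 2 without that highest in 4, and 7 to 20 without 1 library (7 without cKO chow replicate 1). For PTU+T3 against PTU in cKO, 23 became 22 to 25 without 1 library. For PTU+T3 against chow in cKO, 2 became 5 with only the groups compared, 8 with library weights and 1 without the library highest in the 4 atrial markers, and 2 to 3 without 1 library. The lean of members between genotypes did turn. Without the library highest in the 4 atrial markers in each group, cKO against WT on chow went from 34 to 13 of 38 above 0 (median 0.17 to -0.02), and averaged over treatments from 28 to 8 (0.05 to -0.06). Beyond fewer libraries and genes, the cause was not tested. Settings that drop 1 library in each group also call fewer of all genes, 5.24% and 4.09% on PTU in WT and cKO for the 4 markers. The other counts here stand without the share of all genes under the same setting. They do not show whether members were less stable than other genes.

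No paired analysis was possible because the replicate numbers follow accession order and pair no libraries. Depth is unknown, so no floor can be set for the lowest members, Acsl3, Acsl4 and Acot1. With 3 libraries a group, the interactions leave wide intervals. Kit and counting do not separate strands or near-identical copies. Under every alternative in which they were tested, 1 of 4, 8 of 17, 2 of 16 and 15 of 23 calls remained for PTU and T3 in WT and for PTU and T3 in cKO.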

Other observations

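Ratios within a library, chosen after the values were seen, set members of 1 route side by side and do not move with the library's overall scale. The ratio of Cpt2 to Cpt1b, the inner to the outer carnitine enzyme of muscle, was 0.385 to 0.475 on chow, 0.190 to 0.215 on PTU and 0.707 to 0.769 with T3 in the 9 WT libraries. In the 9 cKO libraries it was 0.419 to 0.459, 0.203 to 0.257 and 0.744 to 0.801. The 3 treatments did not overlap in either genotype. Genotypes overlapped on each treatment. The Cpt1b level cannot be separated from that of Gm44502.

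The ratio of Acadvl to Acadm, the dehydrogenases for very long and medium chains, was 0.951 to 1.03 on chow, 0.517 to 0.594 on PTU and 1.38 to 1.60 with T3 in WT, and 0.880 to 0.985, 0.536 to 0.664 and 1.39 to 1.58 in cKO. These treatments did not overlap either, so Acadvl and Acadm changed unequally in these libraries. That pair was picked with the values known, and Acadl and Acads were not compared in this way. The ratio of Cpt1b to Cpt1a was 13.8 to 15.7 on chow, 16.4 to 19.8 on PTU and 11.3 to 13.4 with T3 in WT. In cKO it was 15.6 to 20.6, 17.6 to 19.3 and 14.1 to 15.3, with chow and PTU overlapping. Of the summed level of 4 acyl-CoA synthetases, Acsl1 held 85.7% to 96.2% in all libraries. No test was run on these ratios.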
